A study of Mus musculus with 4 samples.

Results

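The 10 genes described here encode C-type lectin receptors of myeloid cells: *Clec4e*, *Clec4d*, *Clec4n*, *Clec5a*, *Clec7a*, *Clec12a*, *Clec10a*, *Mgl2*, *Clec4a1* and *Clec4a2*. They were chosen by name, and each name matched 1 of the 54532 genes of the deposited count table. The table holds bulk RNA-seq read counts of mouse peritoneal macrophages with the label WT and no other allele. The study asked how medium conditioned by 4T1 cells, a mouse mammary carcinoma line, acts on macrophages through the aryl hydrocarbon receptor (AHR), a ligand-activated transcription factor. Its methods describe macrophages from the peritoneal cavity of adult BALB/c mice injected with thioglycollate broth, an irritant that draws monocyte-derived macrophages into the cavity, so these cells are not the resident macrophages of an untouched peritoneum.

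The 4 libraries form a grid of 2 media and 2 compounds. Cells were kept in normal medium (0% conditioned medium) or in medium with 30% 4T1-conditioned medium (4T1-CM). In each medium they received DMSO, the solvent, or 10 µM CH223191, an AHR antagonist. Pre-treatment with the compound came first, and neither the culture time for these libraries nor the number of mice behind each was given. Each condition has 1 library, so no difference below has a replicate check: every ratio compares 2 libraries, not 2 conditions, and its interval covers counting error only. In bulk RNA, fewer cells of a type and less RNA per cell cannot be told apart.

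C-type lectin receptors are membrane proteins whose lectin-like domain binds sugars, lipids or proteins on microbes and on damaged or tumor cells. Some carry no signalling motif of their own and pair with the adaptors FcRγ (*Fcer1g*) or DAP12 (*Tyrobp*), and others hold a tyrosine motif in their own tail. Activating receptors recruit the kinase SYK, which acts through CARD9, BCL10 and MALT1 on NF-κB, while inhibitory receptors recruit phosphatases such as SHP-1 (*Ptpn6*). Macrophages, monocytes, dendritic cells and neutrophils carry different sets of these receptors.

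The members lie at 4 places in the genome. On chromosome 6 of GRCm38, *Clec4a1*, *Clec4a2*, *Clec4n*, *Clec4d* and *Clec4e* lie within 368 kb (122921848 to 123289870), *Clec12a* and *Clec7a* within 130 kb (129342691 to 129472779), and *Clec5a* apart from both (40574894 to 40585821, minus strand). *Mgl2* and *Clec10a* are neighbours on chromosome 11. Promoter windows of 300 bases from RefSeq (GRCm38.p6), reaching from 250 bases before a gene's annotated start to 50 after it, were found for 8 members, and 5 are shown. *Clec4e*, *Clec4d* and *Clec4a1* had more reads in both 4T1-CM libraries than in both normal medium libraries by over 2-fold, *Clec7a* by close to 2-fold, and *Clec12a* had fewer. Each window is printed 5′ to 3′ on the gene's strand, and capitals mark every match, on either strand, to GAGGAA (a PU.1 core), GCGTG (the AHR core), TTGCNNAA (C/EBP), TGANTCA (AP-1), TTCNNNGAA (STAT) or an NF-kB-like pattern (GGG and CC with any 5 bases between them). The windows are chr6:123289822-123290121 (minus strand) for *Clec4e*, chr6:123261857-123262156 (plus) for *Clec4d*, chr6:122921598-122921897 (plus) for *Clec4a1*, chr6:129472730-129473029 (minus) for *Clec7a* and chr6:129349994-129350293 (plus) for *Clec12a*.
Clec4e: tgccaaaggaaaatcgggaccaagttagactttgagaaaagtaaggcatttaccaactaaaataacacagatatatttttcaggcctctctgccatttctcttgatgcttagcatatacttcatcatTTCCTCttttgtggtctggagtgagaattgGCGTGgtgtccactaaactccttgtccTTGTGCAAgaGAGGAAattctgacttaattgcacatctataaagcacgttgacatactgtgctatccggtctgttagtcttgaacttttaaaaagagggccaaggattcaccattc
Clec4d: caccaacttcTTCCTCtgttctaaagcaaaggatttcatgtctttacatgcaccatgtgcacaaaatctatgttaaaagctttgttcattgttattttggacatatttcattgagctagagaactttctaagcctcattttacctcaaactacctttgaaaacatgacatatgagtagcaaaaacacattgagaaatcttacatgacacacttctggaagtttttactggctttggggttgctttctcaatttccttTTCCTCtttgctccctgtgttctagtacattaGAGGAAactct
Clec4a1: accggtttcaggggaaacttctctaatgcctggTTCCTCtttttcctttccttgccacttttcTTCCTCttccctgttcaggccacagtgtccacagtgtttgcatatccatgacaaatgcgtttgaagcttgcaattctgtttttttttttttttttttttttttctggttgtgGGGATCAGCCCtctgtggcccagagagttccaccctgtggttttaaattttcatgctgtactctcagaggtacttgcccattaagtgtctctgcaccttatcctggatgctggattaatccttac
Clec7a: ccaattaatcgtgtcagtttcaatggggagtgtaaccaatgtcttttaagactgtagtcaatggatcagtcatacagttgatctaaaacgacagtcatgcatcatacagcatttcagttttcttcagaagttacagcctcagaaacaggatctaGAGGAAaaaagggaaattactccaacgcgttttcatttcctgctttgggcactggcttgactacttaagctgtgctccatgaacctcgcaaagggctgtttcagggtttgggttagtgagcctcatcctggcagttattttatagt
Clec12a: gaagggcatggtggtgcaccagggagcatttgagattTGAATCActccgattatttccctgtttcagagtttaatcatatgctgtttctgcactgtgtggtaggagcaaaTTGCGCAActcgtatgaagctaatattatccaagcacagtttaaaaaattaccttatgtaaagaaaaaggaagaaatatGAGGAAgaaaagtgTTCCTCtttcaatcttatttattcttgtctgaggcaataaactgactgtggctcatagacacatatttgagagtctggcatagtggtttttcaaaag

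GAGGAA or its complement was found in 7 of the 8 member windows and in 28.3% of 32851 RefSeq promoter windows. PU.1 is the Ets factor that macrophages need to form. The *Clec4e* window was the 1 member window with GCGTG, at -93 to -89 from the start, and 32.4% of all windows hold that core. TTGCNNAA was found in *Clec4e* and *Clec12a* (10.8% of all windows), TGANTCA in *Clec12a* and *Clec4a2* (7.81%), TTCNNNGAA in *Clec4a2* (8.30%), and the NF-kB-like pattern in *Clec4a1* and *Mgl2* (50.8%). In *Clec4a1* its matches on the plus and minus strands overlap, so their capitals form 1 run. These matches describe letters in a window and say nothing of binding in these cells. The *Clec12a* window does not begin at the start of the gene in the count table (129342691), so it belongs to another annotated start, and the same holds for the *Clec4a2* window (chr6:123122440-123122739, gene start 123106428).

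The libraries held 15535405 and 16129075 reads (normal medium, DMSO then CH223191) and 17557127 and 16388246 reads (4T1-CM, likewise). This order of libraries is kept wherever 4 values follow each other. Levels are given as CPM (counts scaled to a common library size) with TMM factors, which even out library composition, and 1 read was worth 0.0571 to 0.0629 CPM. A minimum of 10 reads in any 1 library left 13715 genes, which were used for the background counts. Of the 10 members, 9 passed this minimum, and *Mgl2* did not. A gene is counted below as higher or lower when its ratio is at least 2-fold, that is, 1 on the log2 scale. All 9 macrophage markers were well above the floor of 3 reads, with *Lyz2*, *Cd68* and *Csf1r* from 8092 reads (*Csf1r*, normal medium with DMSO) upwards. Markers of other cells gave summed levels of 4.68 to 8.34 CPM (8 dendritic), 4.86 to 11.3 CPM (6 monocyte), 61.3 to 210.1 CPM (9 neutrophil), 30.7 to 149 CPM (8 fibroblast and mesothelial) and at most 16.2 CPM in the other 4 lists.

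**Figure D1:**
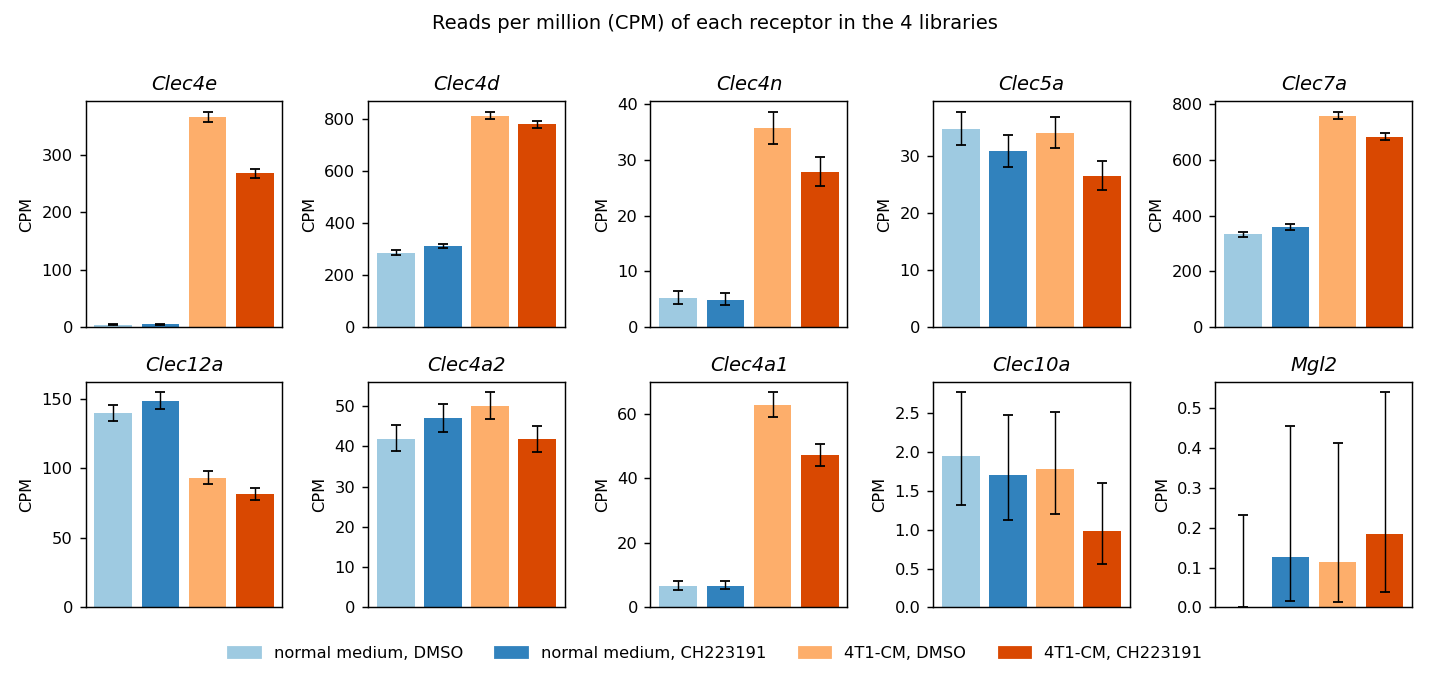
Level of each of the 10 receptors (CPM, linear axis from 0, a scale of its own for each gene) in the 4 libraries. Bars are single libraries and error bars are 95% counting intervals. *Clec4e* goes from 4.01 and 5.09 CPM in normal medium to 365 and 268 CPM in 4T1-CM, while *Mgl2* stays at 0 to 3 reads.

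Against normal medium, 5 of the 9 members that passed the minimum were at least 2-fold higher in 4T1-CM with DMSO (*Clec4e*, *Clec4a1*, *Clec4n*, *Clec4d* and *Clec7a*), and 12.2% of all genes were. With CH223191 in both media, 4 of 9 were (all of these but *Clec7a*), beside 12.0% of all genes. In both comparisons together it was 4 of 9, beside 8.18% of all genes. No member was 2-fold lower in either comparison, beside 6.11% of all genes with DMSO, 7.86% with CH223191 and 3.38% with both. The median log2 ratio of the 9 was 1.19 with DMSO and 0.92 with CH223191, and that of all genes was 0.0082 and 0.016. The members were chosen with results of these libraries known, and the 2 comparisons of media share no library with each other.

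All 3 members that pair with FcRγ were at least 2-fold higher in both 4T1-CM libraries. Lectins outside the 10 members were not counted for this. *Clec4e* encodes Mincle, which binds mycobacterial cord factor and a nuclear protein released by dying cells. *Clec4e* (ENSMUSG00000030142, chromosome 6, 123281789 to 123289870, minus strand) had 64 reads in normal medium when DMSO was given and 81 when CH223191 was given, and in 4T1-CM it had 6396 and 4354. The 2 normal medium libraries were low and the 2 with 4T1-CM high, with no overlap of their counting intervals. Its level was 90.3-fold higher in 4T1-CM with DMSO (log2 ratio 6.50, interval 6.15 to 6.89) and 52.3-fold higher with CH223191 (5.71, interval 5.40 to 6.05). Those ratios ranked 22 and 37 from the highest among 13715 genes, and 5 and 8 among the 11765 that reached 10 reads in all 4 libraries.

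*Clec4d* encodes MCL, which forms a complex with Mincle. *Clec4d* (ENSMUSG00000030144, chromosome 6, 123262111 to 123275265, plus strand) had 4574, 4975, 14243 and 12678 reads, or 287, 313, 814 and 780.4 CPM. It was already abundant in normal medium, and both 4T1-CM libraries lay above both others. The log2 ratio of 4T1-CM to normal medium was 1.50 (interval 1.46 to 1.55) with DMSO. With CH223191 it was 1.32 (1.27 to 1.37), so the folds were 2.84 and 2.49.

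*Clec4n* encodes Dectin-2, a receptor for fungal mannans. *Clec4n* (ENSMUSG00000023349, chromosome 6, 123229843 to 123247021, plus strand) had 83 and 79 reads in normal medium (DMSO, CH223191) and 625 and 452 in 4T1-CM. In CPM these were 5.21, 4.97, 35.7 and 27.8. It was low in both normal medium libraries and higher in both with 4T1-CM, 6.82-fold with DMSO (log2 ratio 2.77, interval 2.45 to 3.13) and 5.57-fold with CH223191 (2.48, interval 2.14 to 2.85).

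*Clec5a*, the member that pairs with DAP12, encodes MDL-1, known as a receptor for flaviviruses. *Clec5a* (ENSMUSG00000029915) had 554 and 491 reads in normal medium and 597 and 430 in 4T1-CM, or 34.8, 30.9, 34.1 and 26.5 CPM. The first 3 libraries overlapped in their counting intervals. That of 4T1-CM with CH223191 (24.0 to 29.1 CPM) overlapped only that of normal medium with CH223191 (28.2 to 33.7 CPM). Its log2 ratio of media was -0.027 with DMSO (interval -0.20 to 0.14) and -0.22 with CH223191 (-0.41 to -0.032), so no difference between the media was detectable at this depth with DMSO.

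*Clec7a* encodes Dectin-1, the receptor for fungal β-glucan, which signals through a single tyrosine motif in its own tail. *Clec7a* (ENSMUSG00000079293, chromosome 6, 129461591 to 129472779, minus strand) had 5304 and 5714 reads in normal medium and 13265 and 11074 in 4T1-CM. In CPM these were 333, 359, 758 and 682, lower in both normal medium libraries than in both others. The ratio of media was 2.28-fold with DMSO (log2 1.19, interval 1.14 to 1.23) and 1.90-fold with CH223191 (log2 0.92, interval 0.88 to 0.97), on either side of the 2-fold limit. The table lists this gene as a polymorphic pseudogene, a class for genes that are intact in some strains.

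Neither inhibitory receptor was 2-fold higher in 4T1-CM. *Clec12a* encodes MICL, which restrains the response to uric acid crystals of dead cells. *Clec12a* (ENSMUSG00000053063, chromosome 6, 129342691 to 129365303, plus strand) had 2229 and 2361 reads in normal medium and 1634 and 1326 in 4T1-CM, or 139.8, 148, 93.3 and 81.6 CPM. Here the normal medium libraries were the high ones. The log2 ratio of media was -0.58 (interval -0.68 to -0.49) with DMSO. With CH223191 it was -0.86 (-0.96 to -0.77), so the level was 1.50-fold and 1.82-fold lower.

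*Clec4a2* encodes DCIR1, the other member with an inhibitory tyrosine motif. *Clec4a2* (ENSMUSG00000030148, chromosome 6, 123106428 to 123143999, plus strand) had 668 and 747 reads in normal medium and 875 and 678 in 4T1-CM, or 41.9, 47.0, 49.98 and 41.7 CPM. The media overlapped. The log2 ratio of media was 0.25 (interval 0.11 to 0.40) with DMSO. With CH223191 it was -0.17 (-0.32 to -0.019), so its sign turned with the compound. Of the 50-base words of its transcripts, 6.83% also occur in other genes, and a pseudogene inside it, *Gm44132*, had 0 reads.

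*Clec4a1* encodes DCIR4, a relative of DCIR1: the aligned coding sequences of both genes are 72.6% identical. *Clec4a1* (ENSMUSG00000049037, chromosome 6, 122921848 to 122934619, plus strand) had 107 and 108 reads in normal medium and 1098 and 766 in 4T1-CM, or 6.71, 6.79, 62.7 and 47.2 CPM. The 2 normal medium libraries were nearly equal and both 4T1-CM libraries were far above them. It was 9.31-fold higher in 4T1-CM with DMSO (log2 ratio 3.22, interval 2.94 to 3.52) and 6.92-fold higher with CH223191 (2.79, interval 2.50 to 3.10). No 50-base word of its transcripts was found in another gene, those of *Clec4a2* included.

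The galactose-type lectins MGL1 (*Clec10a*) and MGL2 (*Mgl2*), which bind terminal galactose or N-acetylgalactosamine, had the fewest reads of the 10 members. *Clec10a* (ENSMUSG00000000318, chromosome 11, 70156197 to 70170834, plus strand) had 31 and 27 reads in normal medium and 31 and 16 in 4T1-CM, or 1.94, 1.70, 1.77 and 0.985 CPM. The interval of its ratio included 0 in all 4 comparisons. *Mgl2* (ENSMUSG00000040950, chromosome 11, 70130329 to 70137550, plus strand) had 0 and 2 reads in normal medium and 2 and 3 in 4T1-CM, at or under the floor of 3 reads, so no ratio is given. The coding sequences of both genes are 90.4% identical, and 8.49% of the 50-base words of *Clec10a* occur in *Mgl2*. Summed, the pair had 31 and 29 reads in normal medium and 33 and 19 in 4T1-CM, and the log2 ratio of media was -0.044 (interval -0.80 to 0.71) with DMSO. With CH223191 it was -0.63 (-1.56 to 0.24).

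**Figure D2:**
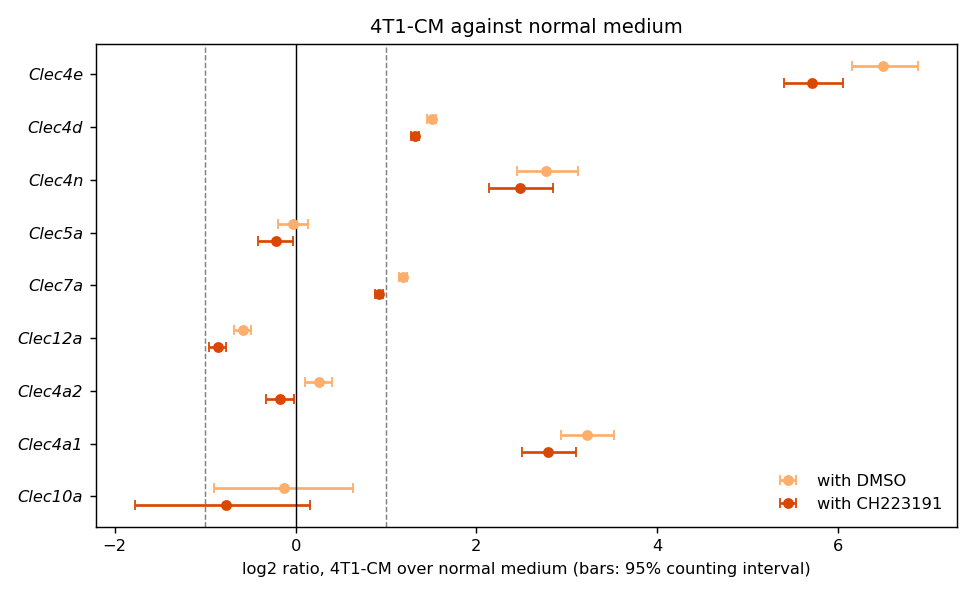
Log2 ratio of 4T1-CM to normal medium for the 9 receptors above the read minimum, with DMSO and with CH223191. Points are ratios of 2 libraries, bars are 95% counting intervals, the solid line marks 0 and the dashed lines mark 2-fold. *Clec4e* stands at 6.50 and 5.71, and *Clec12a* lies below 0 in both.

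**Figure D3:**
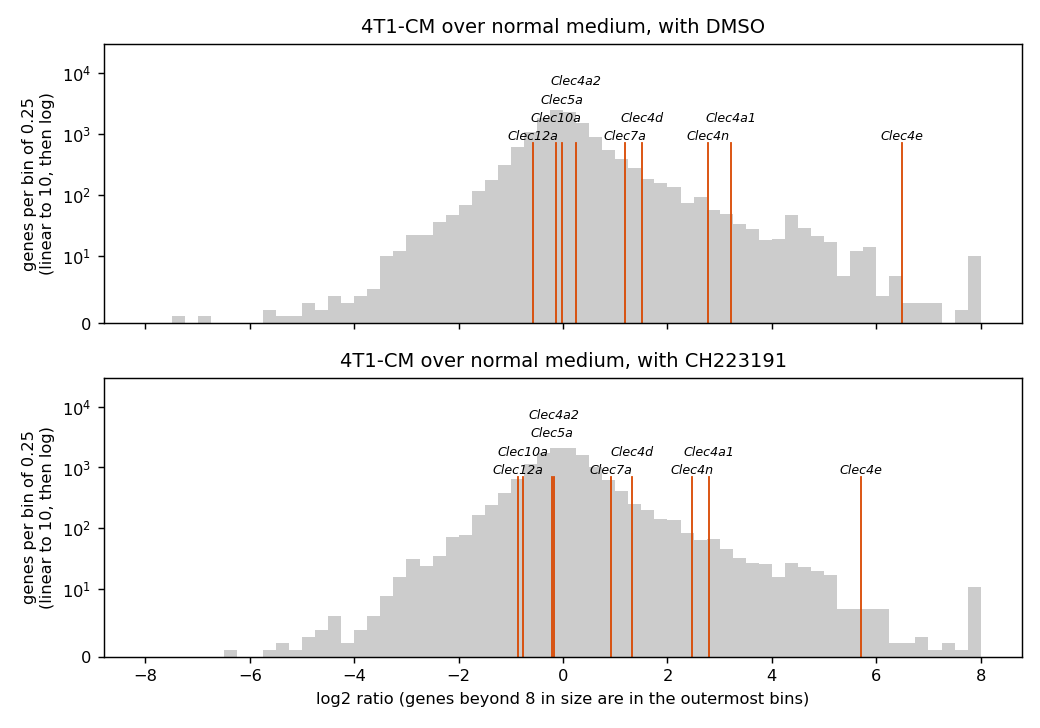
Log2 ratios of 4T1-CM to normal medium for 13715 genes (grey bars, genes per bin, axis linear up to 10 and logarithmic above), with DMSO (top) and with CH223191 (bottom). Vertical lines mark 9 receptors and their height has no meaning. *Clec4e*, *Clec4a1* and *Clec4n* lie in the right tail, and *Clec5a* and *Clec4a2* lie near the centre.

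Levels of different receptors were compared per kilobase, as CPM divided by the gene length in the table. In normal medium with DMSO the order was *Clec4d* (179 CPM per kb), *Clec7a* (126), *Clec12a* (25.3), *Clec4a2* (14.3), *Clec5a* (9.05), *Clec4a1* (4.31), *Clec4n* (3.67), *Clec4e* (0.809), *Clec10a* (0.671) and *Mgl2* at 0 reads. The counting intervals of *Clec4a1* and *Clec4n* overlapped, as did those of *Clec4e* and *Clec10a*. Normal medium with CH223191 gave the same order and the same overlaps. In 4T1-CM with DMSO *Clec4d* (509 CPM per kb) and *Clec7a* (287) were again first, and *Clec4e* came next at 73.6, followed by *Clec4a1* (40.3), *Clec4n* (25.1), *Clec4a2* (17.1), *Clec12a* (16.9), *Clec5a* (8.88), *Clec10a* (0.611) and *Mgl2* (0.0546). *Clec4a2* and *Clec12a* overlapped there. With CH223191 they overlapped in the reverse order, at 14.3 and 14.8 CPM per kb.

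The summed level of all 10 was 364 and 392 CPM per kb in the normal medium libraries (DMSO, CH223191) and 979 and 887 in the 4T1-CM ones. *Clec4d* made up 49.3%, 49.9%, 52.0% and 55.0% of that sum. *Clec4e* went from 0.222% and 0.261% in normal medium to 7.52% and 6.09% in 4T1-CM, and *Clec12a* from 6.95% and 6.85% to 1.73% and 1.67%. The repertoire was thus mostly Dectin-1 and MCL transcripts in every library.

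CH223191 against DMSO gave smaller differences. No member differed by 2-fold in normal medium, beside 4.84% of all genes higher and 3.31% lower, and none in 4T1-CM, beside 2.75% higher and 2.66% lower. In both media together 0.649% of all genes were higher and 0.481% lower. In normal medium the log2 ratio was below 0 for 3 of 9 members and for 48.4% of all genes. In 4T1-CM it was below 0 for 9 of 9 members and for 49.2% of all genes. The median of the 9 was 0.086 for the normal medium pair and -0.36 for the 4T1-CM pair, and that of all genes was 0.0034 and 0.0039. The 9 ratios in 4T1-CM share the same pair of libraries, so they are not independent of one another.

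In 4T1-CM, *Clec4e* was 365 CPM with DMSO and 268 CPM with CH223191, a log2 ratio of -0.45 (interval -0.50 to -0.39), or 1.36-fold lower with the antagonist. *Clec4a1* (-0.41, interval -0.55 to -0.28), *Clec5a* (-0.37, -0.55 to -0.18) and *Clec4n* (-0.36, -0.54 to -0.18) lay close to it on the log2 scale. *Clec4a2* (-0.26), *Clec12a* (-0.19), *Clec7a* (-0.15) and *Clec4d* (-0.060, interval -0.095 to -0.026) differed less, and the interval of *Clec10a* included 0 (-0.83, -1.82 to 0.068). *Clec4d*, the most abundant receptor per kilobase, had the smallest of the 9 differences, 1.04-fold.

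In normal medium, *Clec4e* had a log2 ratio of CH223191 to DMSO of 0.34 (interval -0.15 to 0.84), which includes 0. The intervals of *Clec4n* (-0.067), *Clec5a* (-0.17), *Clec4a1* (0.017) and *Clec10a* (-0.19) also included 0. *Clec4a2* (0.16, interval 0.012 to 0.32), *Clec4d* (0.12, 0.066 to 0.18), *Clec7a* (0.11, 0.057 to 0.17) and *Clec12a* (0.086, 0.0023 to 0.17) were slightly above 0. Scaled to total counts instead of by TMM, the ratios of this pair of libraries dropped (the median of all genes dropped by 0.057 on the log2 scale), and *Clec7a* then stood at 0.053 and *Clec12a* at 0.029. These 4 members were above DMSO in normal medium and below it in 4T1-CM with both intervals excluding 0, beside 2.83% of all genes. Genes with ratios this small can enter that count only with many reads. Scaled to total counts, 1 of 9 members (*Clec4d*) had this pattern, beside 2.41% of all genes.

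**Figure D4:**
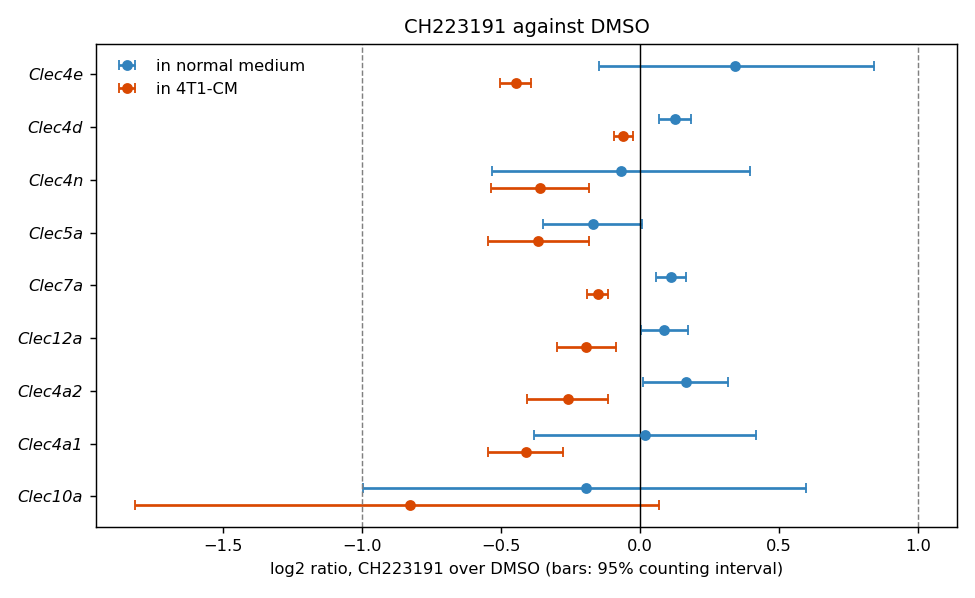
Log2 ratio of CH223191 to DMSO for the 9 receptors above the read minimum, in normal medium and in 4T1-CM. Points are ratios of 2 libraries, bars are 95% counting intervals, the solid line marks 0 and the dashed lines mark 2-fold. All 9 points for 4T1-CM lie below 0, and those for normal medium lie on both sides of it.

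The signed log2 ratio of 4T1-CM to normal medium was lower with CH223191 than with DMSO for 9 of 9 members, beside 50.6% of all genes. The difference of the 2 ratios, which uses all 4 libraries, was -0.79 for *Clec4e* (interval -1.29 to -0.30), -0.43 for *Clec4a1* (-0.85 to -0.0054), -0.42 for *Clec4a2* (-0.64 to -0.21), -0.28 for *Clec12a* (-0.42 to -0.14), -0.26 for *Clec7a* (-0.33 to -0.20) and -0.18 for *Clec4d* (-0.25 to -0.12). For *Clec4n* (-0.29), *Clec5a* (-0.19) and *Clec10a* (-0.63) the interval included 0. For the 5 members at least 2-fold higher in 4T1-CM with DMSO the ratio with CH223191 was nearer to 0. Picking genes by a high ratio in 1 pair favours a lower ratio in the other. The share among all genes picked in this way was not counted. For *Clec12a* (-0.58 and -0.86), *Clec5a* (-0.027 and -0.22) and *Clec10a* (-0.13 and -0.77) it was further below 0, and for *Clec4a2* (0.25 and -0.17) it changed sign. Of the *Clec4e* difference, the larger share came from the 4T1-CM pair (-0.45) and the rest from the normal medium pair (0.34), whose own interval included 0.

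Fitted across all genes and all 4 libraries with medium and compound as additive terms, which leaves 1 residual degree of freedom and takes the departure from additivity as the spread, edgeR's quasi-likelihood test gave a medium effect at a Benjamini-Hochberg adjusted p under 0.05 for 6 of 9 members. Of these 5 rose in 4T1-CM and 1 fell, beside 16.4% of all genes higher and 16.2% lower. The spread in this fit is shared in part between genes and holds no difference between replicate cultures. The p-values therefore do not measure whether a medium effect would repeat. The adjusted p was 1.3e-08 for *Clec4e*, 3.9e-07 for *Clec4a1*, 1.7e-06 for *Clec4n*, 1.6e-05 for *Clec4d*, 0.00015 for *Clec7a* and 0.0019 for *Clec12a*, the one that fell. *Clec10a* (0.444), *Clec5a* (0.521) and *Clec4a2* (0.841) did not pass. For the compound, edgeR's test called 0 of 9 members, beside 0.0729% of all genes higher and 0.00729% lower. The members' adjusted p in that test was 0.797 to 0.980, and 0 had an unadjusted p under 0.05. The ratio of CH223191 to DMSO was above 0 in normal medium for 6 of 9 members and below 0 in 4T1-CM for all 9. Opposite signs offset in an additive compound term and add to its spread. The 0 calls therefore cannot show that CH223191 made no difference within 1 medium. DESeq2 with the same terms called the same numbers of members, 5 higher and 1 lower for the medium (9.14% and 9.39% of the 13183 genes to which it gave an adjusted p) and 0 for the compound (0.127% and 0.00975% of 10258 such genes, among which *Clec10a* was not, and 0 members at an unadjusted p under 0.05).

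The 2 clusters on chromosome 6 hold other lectin genes between the members. From *Clec4a1* to *Clec4e* the table has 13 genes, and 7 had at least 10 reads in a library. The 2 that are no members are *Clec4a3*, another DCIR relative, with 467, 521, 364 and 329 reads, and *Clec4b1*, with 23, 17, 0 and 2. Both were lower in 4T1-CM, beside *Clec4n*, *Clec4d* and *Clec4e*, which lie at the other end of the cluster and were all higher. *Clec4a1*, next to *Clec4a3* at the same end, was also higher (log2 ratio 3.22 with DMSO and 2.79 with CH223191). *Clec4a4* had at most 5 reads in any library and *Clec4b2* had 0 in all 4.

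From *Clec12a* to *Clec7a* there are 7 genes, of which 5 had at least 10 reads in a library. The platelet receptor gene *Clec1b* had 4, 3, 40 and 27 reads, *Clec9a*, a dendritic cell receptor gene, 6, 0, 23 and 13, and *Clec1a* 27, 20, 45 and 38. *Clec1b* and *Clec9a* overlap by position on the same strand, so their reads cannot be fully assigned. *Clec12a*, at 1 end, was lower in 4T1-CM and *Clec7a*, at the other, higher. Neighbours in a cluster therefore did not share 1 direction.

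**Figure D5:**
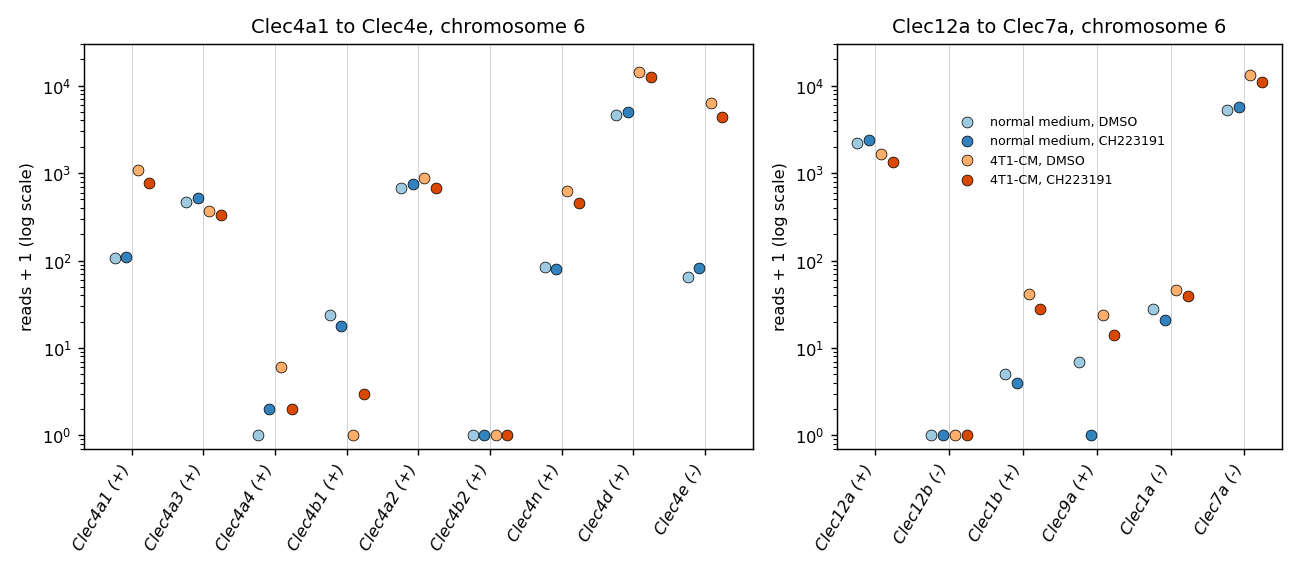
Reads plus 1 (logarithmic axis) of the protein-coding genes and *Clec7a* in both clusters on chromosome 6, in genomic order, with the strand in brackets and 1 point for each library. *Clec4a1*, *Clec4n*, *Clec4d* and *Clec4e* have their 4T1-CM points above their normal medium points, *Clec4a3*, *Clec4b1* and *Clec12a* below. Heights are reads and are not comparable between genes of different length.

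Other C-type lectins, 46 genes fixed as a list, had 20 that passed the read minimum. Of these 8 were at least 2-fold higher in 4T1-CM with both compounds and 1 was lower (*Clec4b1*). Among the 9 members 4 were higher and 0 lower, and among all genes 8.18% and 3.38%. Of the 8, *Clec1b*, *Clec9a* and *Cd69* (2, 6, 28 and 15 reads) passed the read minimum only through 4T1-CM, which set their direction. *Clec4b1* passed it only through normal medium. The other higher ones had at least 10 reads in every library, so a rise in 4T1-CM was not particular to the members. *Olr1*, the receptor LOX-1 for oxidised lipoprotein, had 10, 11, 1708 and 1567 reads, a log2 ratio of media of 7.21 (interval 6.40 to 8.34) for the DMSO pair and 7.06 (6.28 to 8.13) for the CH223191 pair. *Klra2*, a killer-lectin family gene, had 15, 11, 129 and 77 reads. *Mrc1*, the mannose receptor, had 2735, 2254, 1751 and 1503 reads, with log2 ratios of media of -0.78 and -0.62, both under 2-fold. *Olr1* had a higher ratio of media than *Clec4e*, and *Mrc1*, like *Clec12a*, was lower in both 4T1-CM libraries.

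None of 19 signalling genes of these receptors was 2-fold higher or lower in 4T1-CM with both compounds. Among all genes 8.18% were higher and 3.38% lower. *Traf6* (log2 ratio of media 0.98 with DMSO and 1.04 with CH223191) and *Src* (0.82 and 0.92) came near 2-fold higher. The FcRγ gene *Fcer1g* had 241, 314, 266 and 232 CPM, with log2 ratios of media of 0.14 with DMSO and -0.44 with CH223191, so the adaptor of Mincle, MCL and Dectin-2 was not 2-fold higher where they were. *Syk* had 471, 510.0, 660.1 and 702 CPM (ratios 0.49 and 0.46), and *Card9* 30.5, 32.8, 24.6 and 24.9 CPM (-0.31 and -0.40). *Tyrobp*, the DAP12 gene, had 641, 1109.6, 384 and 364 CPM, with ratios of -0.74 and -1.61, and *Hcst*, the DAP10 gene, 19.2, 28.3, 13.5 and 12.5 CPM, with ratios of -0.51 and -1.18. *Tyrobp*, *Hcst* and *Fcer1g* were each highest in normal medium with CH223191. In that library genes under 1 kb had a median log2 ratio of 0.23 to the DMSO library, and other genes 0.0015, and the part of gene length in the adaptor values was not tested.

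Of 16 cytokine, chemokine and effector genes that these receptors can induce, 10 passed the read minimum, 6 were higher in both comparisons of media and 1 lower. The shares among all genes were 8.18% higher and 3.38% lower. *Il1b* had 2, 8, 3162 and 2252 reads, *Cxcl1* 4, 8, 278 and 208, and *Nos2* 0, 1, 45 and 44. *Il1b*, *Cxcl1*, *Nos2* and *Il6* (0, 0, 10 and 10) were under 10 reads in both normal medium libraries. They passed the minimum only through 4T1-CM, which set their direction, so the count of higher genes partly reflects the minimum. *Egr2* was the lower one, with 171, 177, 65.4 and 67.6 CPM. Of 12 genes known from the response to IL-4, under which *Clec10a*, *Mgl2* and *Mrc1* are known to be induced, 9 passed, 3 were higher in both comparisons and 2 lower. *Arg1* (520, 936, 32359 and 39348 reads), *Tgm2* (1675, 2359, 15511 and 16996) and *Il4ra* (411, 396, 2168 and 2126) were the higher ones, and *Pparg* (885, 824, 221 and 257) and *Ccl24* (14, 15, 1 and 2) the lower ones. *Ccl24* passed the minimum only through the normal medium libraries, which set its direction. *Clec10a* and *Mgl2* were low in all 4 libraries, those with high and those with low *Arg1* alike. In none of these lists, signalling genes and other lectins included, was a gene 2-fold higher or lower with CH223191 in both media. Among all genes 0.649% were higher and 0.481% lower.

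Some cell type markers also differed between the media. Among all genes 8.18% were at least 2-fold higher in both comparisons of media and 3.38% lower. Of 9 macrophage markers, 4 were at least 2-fold higher in both comparisons of media, *Cd14* (4379, 3808, 55189 and 55483 reads), *Adgre1* (4098, 3912, 17920 and 14168), *Fcgr1* and *Lyz2*. The neutrophil-defining genes *Ly6g*, *S100a9* and *Retnlg* and the monocyte gene *Ly6c2* were at 0 in all 4 libraries, while *Mmp8*, on the neutrophil list, had 35, 21, 2142 and 759 reads and *Cxcr2* 12, 9, 2 and 0. On the dendritic list *Ccr7* (0, 1, 24 and 13 reads) and *Clec9a* were higher and *Batf3* (96, 70, 50 and 24) lower, *Siglech* being at 0 throughout. Of 8 fibroblast and mesothelial genes 4 were higher, among them *Col1a1* (359, 118, 958 and 704 reads), *Col3a1* (88, 24, 284 and 202) and *Dcn* (35, 45, 172 and 139). *Spn* (134, 130, 55 and 47) and *Ace* on the monocyte list and *Siglecf* (251, 221, 105 and 88) on the eosinophil and mast cell list were lower. *Cdh1* on the epithelial list went from 3 and 7 to 16 and 20 reads. *Ccr7*, *Clec9a* and *Cdh1* passed the read minimum only through 4T1-CM and *Cxcr2* only through normal medium, which set their direction. The read minimum was passed by 0 of 5 B cell markers and by 1 of 7 T and NK cell markers, which was not 2-fold in both. Those lists are too shallow to show a difference between the media. The part of the cells on all these lists in the receptor values was not tested.

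Over the 4 libraries, the genes closest in pattern to each receptor were found by Euclidean distance between log2 CPM values centred on the gene's mean, among 8323 genes whose mean level was 10 CPM or more. For *Clec4e* these were *Epha4* (4, 7, 418 and 421 reads, distance 0.490) and *Cd38* (75, 105, 4844 and 4941, distance 0.590), which unlike *Clec4e* were not lower with CH223191 in 4T1-CM. For *Clec4d* they were *Naip2* (distance 0.0315) and *Gbp2b* (0.0433), for *Clec4n* *Ms4a7* (0.150) and *Dst* (0.179), and for *Clec4a1* *Irak3* (0.165) and *Tnip3* (0.208). *Clec7a* had *Ripk2* (0.0576) and *Foxp4* (0.0789), *Clec12a* *Gart* (0.0375) and *Srrt* (0.0398), *Clec5a* *Ptges3* (0.0703) and *E2f6* (0.0744), and *Clec4a2* *Gm15920* (0.0192) and *Nsdhl* (0.0355). The distances to *Clec4e* were the longest of these, and none of the 8323 genes was closer to it than 0.490. Distances over 4 libraries describe these libraries only.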

How the data were processed

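Total RNA of 4 peritoneal macrophage cultures was made into libraries with a NEBNext Ultra kit. The authors deposited a table of read counts (whole numbers) for each gene, with coordinates, lengths and biotypes. The submitters' processing notes name HISAT2 2.0.5 and DESeq2. How reads were counted and whether strand was used are not given in the sources used here for these libraries. Of 54409 genes shared by identifier with GENCODE M21 (GRCm38), 53462 had identical coordinates, and all 10 members did. Columns named for RPMI medium and tumor-conditioned medium were matched to the labels of 0% and 30% 4T1 medium.

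The counts were scaled by TMM (edgeR 4.0.16, R 4.3.3) and genes that reached 10 reads in any 1 library kept. Log2 ratios of 2 libraries used a prior count of 0.5. Their 95% intervals are exact (Clopper-Pearson) for the split of a gene's reads, those of a difference of ratios come from the conditional exact odds ratio, and those of levels are exact Poisson intervals. All cover counting error only. The scripts were tested on simulated data. With 1 library per condition, no test of a pair of libraries was made. Additive fits (edgeR quasi-likelihood, DESeq2 1.42.0), other scalings, filters and prior counts, protein-coding genes only, and summed *Clec10a* and *Mgl2* reads were the alternatives. Entries with a repeated symbol (103) were named by identifier. Promoter words and 50-base transcript words were searched with Python 3.11.15, and coding sequences aligned with Biopython 1.88.

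The 10 members were all named. From the lists of lectins, signalling, output, IL-4 and cell marker genes, the text names genes at least 2-fold in 1 direction in both comparisons of a pair. Up to 3 per direction were taken by the smaller ratio. Named besides are *Fcer1g*, *Tyrobp*, *Hcst*, *Syk*, *Card9*, *Mrc1* and defining cell markers, and *Traf6* and *Src* for ratios near 2-fold. The 2 genes nearest in pattern and the cluster genes with at least 10 reads in a library were also named. Members and lists were chosen with earlier results of these data known.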

Additional observations from a re-analysis of the deposited data

Results flagged for a closer look

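Under CH223191, 4 receptors went in opposite directions in the 2 media, each with an interval that excludes 0 in both under TMM scaling. The log2 ratio of CH223191 to DMSO was 0.12 (normal medium) and -0.060 (4T1-CM) for *Clec4d*, 0.11 and -0.15 for *Clec7a*, 0.086 and -0.19 for *Clec12a*, and 0.16 and -0.26 for *Clec4a2*. With 1 library per condition the difference between the media was not tested against replicates, and all 8 ratios are under 2-fold. Such a pattern was found for 2.83% of all genes, a count that genes with ratios this small can enter only with many reads. Scaled to total counts, the intervals of *Clec7a* (-0.00085 to 0.11), *Clec12a* (-0.055 to 0.11) and *Clec4a2* (-0.045 to 0.26) in normal medium included 0, and *Clec4d* alone kept both intervals off 0.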

How the results depend on the processing

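The count of members at least 2-fold higher in 4T1-CM with both compounds was 4 under DESeq2 size factors, total counts, no filter, a minimum of 10 reads in all 4 libraries, prior count 5 and protein-coding genes only. With no filter, *Mgl2* (0 and 2 reads) made 1 member 2-fold higher with CH223191 in normal medium, against 0, and 6 instead of 5 higher in 4T1-CM with DMSO. Protein-coding genes only left out *Clec7a* and gave 4. The additive fits, by adjusted p and not by fold, called 5 members higher and 1 lower (*Clec12a*) in 4T1-CM with both edgeR and DESeq2, against 0 lower by fold. Total counts took *Clec7a* with CH223191 in normal medium from 0.11 to 0.053 and *Clec4a1* from 0.017 to -0.041, while the 9 members were below 0 in 4T1-CM under each of the 3 scalings. With total counts, an alternative chosen after seeing the data, 1 member and not 4 was above DMSO in normal medium and below it in 4T1-CM with both intervals off 0. Of 333 alternative values, 251 single-gene ratios moved by less than their counting interval, 77 counts stayed within 1.5 times the main count, and the 5 others are those above. No paired analysis was possible because each condition has 1 library and the labels carry no replicate numbers. Leaving out a library was not possible for the same reason. *Mgl2* (0 to 3 reads) is too shallow to show a difference between media. For *Clec10a* (16 to 31 reads) the interval of the log2 ratio of media was -0.90 to 0.63 with DMSO, inside 2-fold. With CH223191 it was -1.78 to 0.16 and reached past 2-fold lower. Its reads are too few to show a small difference.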
